A study of Homo sapiens with 4 samples.

Results

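S100 proteins, annexins and galectin-1 are small or medium-sized cytosolic proteins that also act at membranes and outside the cell. The genes described here were S100A4, S100A6, S100A8, S100A9, S100A10, S100A11, ANXA1, ANXA2, ANXA5 and LGALS1, listed by name and found in the deposited table by matching Ensembl identifiers to gene symbols. All 10 were present among the 23622 genes of the table. No measured value of these libraries entered the rule that picked them, but the list was drawn up with earlier results of the same data known.

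The libraries came from MV4-11, an established acute myeloid leukemia line with monocytic features, in 2 groups of 2. In the sh-IRF1 group, IRF1, an interferon-responsive transcription factor, was knocked down with a short hairpin RNA. The sh-NC group is given as wild type with no treatment in the sample labels, while the study describes a control hairpin, with both hairpins carried by a lentiviral pLKO.1 vector and transduced cells selected with puromycin. More than 1 hairpin against IRF1 was designed, and which of them each sh-IRF1 library carried is not given, so both were taken as replicates of the knockdown. Nothing in the labels says that libraries of a group came from separate cultures. The p-values thus rest on the spread between these libraries, which may be technical. The test used below weighs mostly the spread of genes at similar levels, so a small p does not by itself mean close replicates.

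S100 proteins are dimers with EF hands, and most of them change shape on binding calcium and then hold target proteins, while S100A10 no longer binds calcium and stays in the open form. Annexins bind acidic phospholipids in the presence of calcium, and S100 dimers such as S100A10 and S100A11 bring annexins together in pairs to bridge membranes. Galectin-1 binds beta-galactosides on cell surface glycoproteins, and the S100A8 and S100A9 pair, known as calprotectin, is abundant in mature neutrophils and monocytes.

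Promoter sequence is shown for ANXA2, S100A6 and S100A9, the first as a gene that rose and the others as genes that fell in the sh-IRF1 libraries. Each run is the 250 bases before the RefSeq start of the gene on GRCh38.p14, written 5′ to 3′ on the gene's own strand. Capitals mark matches, on either strand, to the TATA box letters TATAAA, to the GC box letters GGGCGG and to the AP-1 site letters TGANTCA. A GC box match on the opposite strand is printed as its reverse complement. The windows lie at chr15:60397987-60398236 on the minus strand for ANXA2, at chr1:153535992-153536241 on the minus strand for S100A6 and at chr1:153357604-153357853 on the plus strand for S100A9.
ANXA2: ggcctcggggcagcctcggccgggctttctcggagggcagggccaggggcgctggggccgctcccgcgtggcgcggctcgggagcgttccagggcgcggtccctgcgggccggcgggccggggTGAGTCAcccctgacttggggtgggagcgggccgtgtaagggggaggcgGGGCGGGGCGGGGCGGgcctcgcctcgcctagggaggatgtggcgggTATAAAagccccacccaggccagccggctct
S100A6: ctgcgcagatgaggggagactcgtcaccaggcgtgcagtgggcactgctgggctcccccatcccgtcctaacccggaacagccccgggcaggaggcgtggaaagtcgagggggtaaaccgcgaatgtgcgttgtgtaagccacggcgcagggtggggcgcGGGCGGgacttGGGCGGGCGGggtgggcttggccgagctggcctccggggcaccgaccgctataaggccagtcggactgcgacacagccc
S100A9: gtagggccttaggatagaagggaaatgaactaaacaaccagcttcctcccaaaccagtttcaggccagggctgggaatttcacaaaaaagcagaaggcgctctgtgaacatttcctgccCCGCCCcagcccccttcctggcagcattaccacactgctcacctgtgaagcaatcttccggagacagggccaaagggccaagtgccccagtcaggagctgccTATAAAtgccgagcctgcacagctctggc
The ANXA2 window was the richest of these in G and C, at 78.0%, against 70.0% for S100A6 and 55.6% for S100A9. ANXA2 held the AP-1 letters starting 127 bases upstream, the TATA box letters 31 bases upstream and 3 overlapping GC box matches. S100A6 held 3 GC box matches, of which the last pair overlap, and no TATA box match. S100A9 held the TATA box letters 29 bases upstream and 1 GC box match, on the opposite strand.

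RefSeq windows were matched by symbol for 9 of the 10 genes, with 11 windows in all because S100A8 has 3. Of the 5 motifs searched on both strands, TATAAA was found in 6 of the 11 windows, against 10.7% of the 35116 windows of all genes. These were the windows of ANXA1, ANXA2, S100A4 and S100A9 and some of those of S100A8. The S100A8 windows with a match overlap and hold the same site, so by gene 5 of the 9 had a match. GGGCGG was found in 6 of the 11, against 42.6% of all windows, and TGANTCA in that of ANXA2 alone, against 6.57%. GAAA repeated after a gap of any 2 bases, a core of the elements that interferon regulatory factors bind, was in 0 of the 11 windows and in 3.02% of all, and CACGTG was in 0 of the 11 and in 6.34% of all. A match describes letters in these windows and not a bound site.

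All 6 S100 genes lie on chromosome 1 in the GENCODE 44 annotation of GRCh38. S100A10 (151982915 to 151993859) and S100A11 (152032506 to 152047907) are 38646 bases apart, and 1309946 bases separate S100A11 from S100A9 (153357854 to 153361023). S100A9 is 29008 bases from S100A8 (153390032 to 153391073), and S100A6 (153534599 to 153536244) is 7368 bases from S100A4 (153543613 to 153550136). Of these genes S100A9 is on the plus strand and the others are on the minus strand. The annexins and galectin-1 are dispersed, with ANXA5 on chromosome 4 (121667946 to 121696995, minus strand), ANXA1 on chromosome 9 (73151865 to 73170393, plus strand), ANXA2 on chromosome 15 (60347134 to 60402883, minus strand) and LGALS1 on chromosome 22 (37675636 to 37679802, plus strand).

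The deposited values are reads per gene divided by 1 size factor per library, and are called normalized counts here. They correspond to between 17635908 and 18695337 reads per library. Fold changes are differences of log2(normalized count + 1) between the group means, which understate the change of sparsely read genes, and were tested with limma over 14120 genes with Benjamini-Hochberg adjustment. A gene was called higher or lower at an adjusted p under 0.05. IRF1 itself fell to 56.6% of the control level, from 762 ± 32.7 (SD, n = 2) to 431 ± 1.58 (SD, n = 2) normalized counts (log2 fold change -0.82, adjusted p = 1.69e-10 from limma), and an antisense gene covers 22.9% of its exonic sequence. All 12 myelomonocytic markers searched for were listed, with summed normalized counts of 42686 to 43139 in sh-NC and 40332 to 40635 in sh-IRF1. Of these, 4 were called higher and 4 lower, beside 20.3% and 21.9% of all genes tested. Erythroid markers were not listed, and the markers of T cells and of fibroblasts summed to at most 8.22 and 6.16 normalized counts in any library. Listed B cell markers (4 of 5) summed to 101 to 130 in sh-NC and 254 to 315 in sh-IRF1, most of it CD79A, listed megakaryocyte markers (3 of 5) to 121 to 132 and 59.0 to 75.6, and listed epithelial markers (2 of 5, both keratins) to 254 to 343 and 362 to 392. The part of these shifts in the results below was not tested.

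The genes did not move as 1 block. LGALS1, ANXA2 and ANXA5 rose in the sh-IRF1 libraries, to between 124% and 138% of the control level, while S100A6 and S100A9 fell, to 62.3% and 20.6%. S100A4, S100A10, S100A11 and ANXA1 did not pass the test, and S100A8 had too few reads to be tested. The 9 tested genes thus held 3 called higher, against 20.3% of all genes tested, and 2 called lower, against 21.9%. Scaling the libraries to their total reads turned the balance over all genes, to 3428 higher and 2647 lower, while the list still held 3 called higher and 2 called lower. S100A9 passed the filter on low values only through the sh-NC libraries, where it was high, so its place among the tested genes is not independent of its change. With a log2 fold change beyond 0.5 required as well, 0 of the 9 were higher, against 8.27% of all genes, and 2 were lower, against 7.56%. Their log2 fold changes had a median of -0.01, beside 0.00 over all genes tested. These counts are too small to set against the shares of all genes, so nothing is read from them about the list as a whole. As these are bulk samples with no spike-in, fewer cells that carry a transcript and less of it per cell cannot be told apart.

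**Figure D1:**
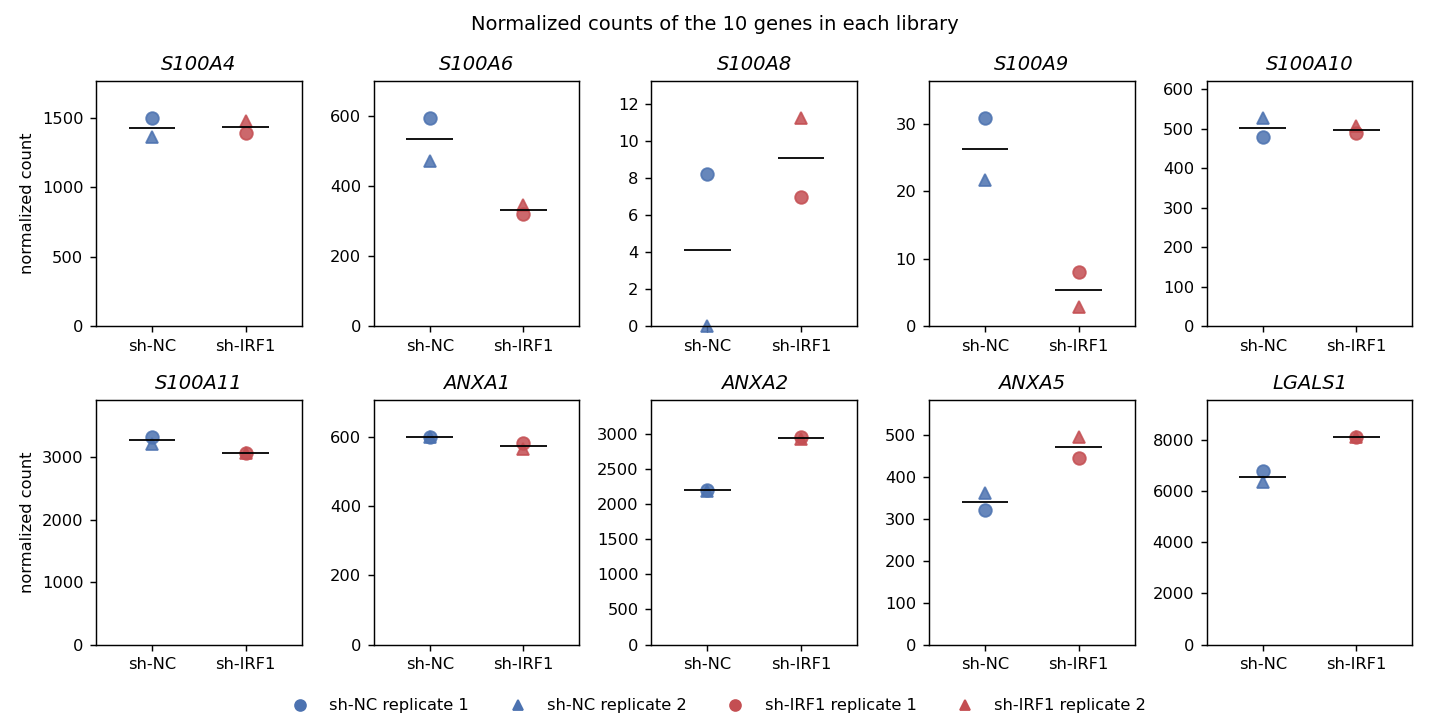
Normalized counts of the 10 genes in each library, 1 panel per gene with its own axis, with points for single libraries and lines for the mean of each group (sh-NC and sh-IRF1, n = 2 each). LGALS1, ANXA2 and ANXA5 lie higher in both sh-IRF1 libraries, S100A6 and S100A9 lie lower, and the groups of S100A4, S100A8 and S100A10 overlap.

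Among the S100 genes, S100A6, or calcyclin, which binds annexins and the ubiquitin ligase adaptor CACYBP, had 594 and 473.5 normalized counts in sh-NC and 319 and 346 in sh-IRF1. Both knockdown libraries were below both controls, and the controls were farther apart from each other than the knockdown libraries were. The log2 fold change was -0.67 (standard error 0.111, 95% interval -0.90 to -0.45, adjusted p = 1.79e-06 from limma), larger than the spread between the replicates. Leaving out single libraries gave values from -0.84 to -0.51. Another gene overlaps 3.81% of its exonic bases.

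S100A4, or metastasin, binds nonmuscle myosin and lies close to S100A6 on the chromosome, with S100A5 between them. It had 1496 and 1364 normalized counts in sh-NC and 1393 and 1475 in sh-IRF1. The groups overlapped, with the highest and the lowest value both in sh-NC. The log2 fold change was 0.00 (95% interval -0.12 to 0.13, adjusted p = 0.958 from limma), so a change of the size seen in S100A6 lies outside the interval. Its direction turned when single libraries were left out, as did that of S100A10.

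The calprotectin pair was near the limit of detection in these cells. S100A9 had 30.8 and 21.6 normalized counts in sh-NC (30 and 21 reads) and 7.96 and 2.81 in sh-IRF1 (8 and 3 reads). The knockdown libraries were both below the controls, and no values overlapped. Its log2 fold change was -2.20 (standard error 0.621, 95% interval -3.45 to -0.94, adjusted p = 0.0034 from limma). Leaving out single libraries gave values from -2.81, without sh-IRF1 replicate 1, to -1.58, without sh-IRF1 replicate 2. The call was lost without sh-NC replicate 1 (adjusted p = 0.0786 from limma) and without sh-IRF1 replicate 2 (adjusted p = 0.0541 from limma), while edgeR and DESeq2 on the recovered reads kept it (adjusted p = 0.00162 and 0.011). Both of these tests used the same reads, and edgeR the same filter, which S100A9 passed only through the sh-NC libraries. They are therefore not separate support for the call. Of the 12 myelomonocytic markers, FLT3, CSF1R, CD14 and MPO fell as S100A9 did, and LYZ, ITGAM, SPI1 and FUT4 rose. The markers CD33, CD68, CD4 and KIT did not pass the test. The monocyte marker CD14 had 38.0 and 42.1 normalized counts in sh-NC and 10.9 and 1.87 in sh-IRF1, while the lysozyme gene LYZ had 1824 and 1785 in sh-NC and 3276 and 3218 in sh-IRF1. CD14 was near the limit of detection as well, with 11 and 2 reads in sh-IRF1. Of the exonic bases of LYZ, 34.7% are shared with a gene on the opposite strand. The part of these markers in the result was not tested.

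S100A8, the partner of S100A9, had 8.21 and 0 normalized counts in sh-NC and 6.96 and 11.2 in sh-IRF1, from 8, 0, 7 and 12 reads. The control libraries spanned nearly the whole range, and the groups overlapped. The 0 allows up to 3 reads in that library, which covers counting error only, and no fold change is given.

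S100A10 and S100A11, the S100 proteins that pair annexins, showed smaller differences. S100A10, or p11, the partner of annexin A2 in a complex that binds plasminogen at the cell surface, had 478 and 526 normalized counts in sh-NC and 489 and 506 in sh-IRF1. Both knockdown values lay between the controls. Its log2 fold change of -0.01 (95% interval -0.21 to 0.19, adjusted p = 0.942 from limma) became 0.03 when libraries were scaled to their total reads. S100A11, which binds annexin A1, had 3323 and 3215 normalized counts in sh-NC and 3069 and 3065 in sh-IRF1. Its values did not overlap, and its log2 fold change of -0.09 (standard error 0.0427, 95% interval -0.18 to -0.0057) missed the threshold after adjustment (adjusted p = 0.0801 from limma).

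Of the annexins, ANXA2, which bridges membranes and binds S100A10, had 2196 and 2188 normalized counts in sh-NC and 2954 and 2926 in sh-IRF1. Replicates differed by far less than the groups. The gene rose to 134% of the control level, a log2 fold change of 0.42 (standard error 0.0461, 95% interval 0.33 to 0.52, adjusted p = 1.20e-10 from limma). Its named pseudogene ANXA2P2, chosen after its values were seen, holds a near copy of the sequence and went from 143 ± 8.84 to 179 ± 20.4 normalized counts (SD, n = 2 each), which did not pass the test (log2 fold change 0.32, adjusted p = 0.13 from limma). Its reads came to 6.26% of those of ANXA2.

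ANXA5, which binds phosphatidylserine and is used to stain dying cells, had 321 and 362 normalized counts in sh-NC and 447 and 497 in sh-IRF1. Both knockdown libraries were above both controls. The level rose to 138% (log2 fold change 0.47, standard error 0.110, 95% interval 0.25 to 0.69, adjusted p = 0.000471 from limma). ANXA1, a glucocorticoid-induced inhibitor of inflammation that acts through formyl peptide receptors, had 599 normalized counts in each control library and 582 and 563 in sh-IRF1. The groups did not overlap, but the log2 fold change of -0.07 (95% interval -0.24 to 0.11, adjusted p = 0.594 from limma) did not pass the test.

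LGALS1, which encodes galectin-1, a secreted lectin that can trigger the death of T cells, had 6763 and 6344 normalized counts in sh-NC and 8109 and 8094 in sh-IRF1. The knockdown libraries nearly coincided, and both were above both controls. Its log2 fold change was 0.31 (standard error 0.0339, 95% interval 0.24 to 0.37, adjusted p = 1.87e-10 from limma), and leaving out single libraries gave values from 0.26 to 0.35. The summed normalized count of the 10 genes went from 15092 to 15808 in sh-NC to 17377 to 17485 in sh-IRF1. LGALS1 made up the largest part of this sum and of its rise, so the sum does not describe the list as a whole.

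**Figure D2:**
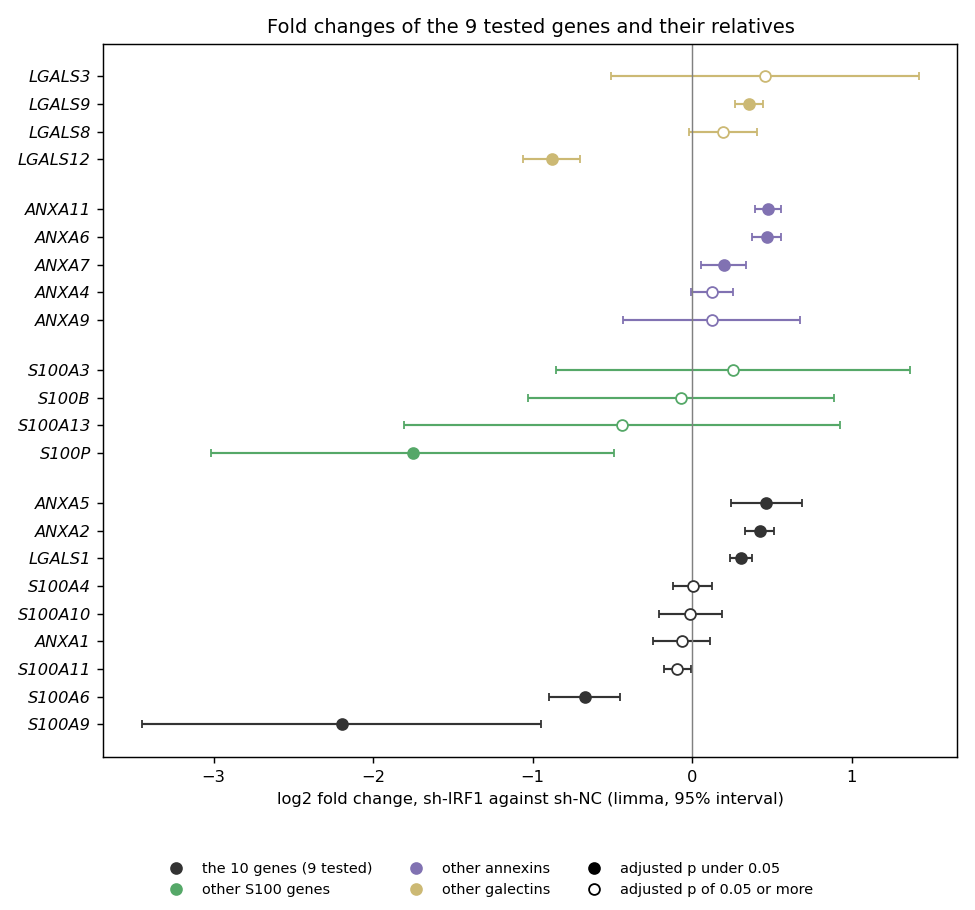
Log2 fold changes, sh-IRF1 against sh-NC, of the 9 tested genes and of the tested genes of the other S100, annexin and galectin lists, with bars for the 95% interval from limma, 1 color per list and filled points for an adjusted p under 0.05. ANXA2, ANXA5 and LGALS1 lie to the right of 0 and S100A6 and S100A9 to the left, with the widest interval for S100A9 among the 9.

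Levels can be compared between the genes only per length. In RPKM, reads per kilobase of the union of exons scaled to the reads of the library, LGALS1 stood highest in sh-NC, with 339 ± 15.8 (SD, n = 2), followed by S100A11 with 278 ± 6.90 and S100A4 with 83.5 ± 5.56. These 3 levels were separated by more than their spread in both groups, and in sh-IRF1 the RPKM of LGALS1 was 432 ± 0.940. S100A6 and S100A10 were neighbours in sh-NC, with 30.4 ± 4.89 and 27.4 ± 1.80 RPKM, and did not differ beyond their spread on this length. In sh-IRF1 they stood in the other order, with 19.5 ± 1.16 and 28.0 ± 0.758 RPKM. On the length of the canonical transcript, an alternative chosen after the data were seen, S100A6 stood above S100A10 in sh-NC by more than their spread, with 67.9 ± 10.9 and 41.3 ± 2.72 RPKM. On that length they did not change order in sh-IRF1, with 43.6 ± 2.61 and 42.2 ± 1.14 RPKM, and did not differ beyond their spread.

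The annexins were lower on this scale. ANXA2 had 10.5 ± 0.0446 RPKM in sh-NC and 14.5 ± 0.0471 in sh-IRF1, ANXA1 had 7.43 ± 0.0136 and 7.32 ± 0.144, and ANXA5 had 6.44 ± 0.530 and 9.18 ± 0.720. On the exon union ANXA5 was thus below ANXA1 in sh-NC and above it in sh-IRF1, while on the canonical transcript it was below in both groups, with 16.4 ± 1.29 RPKM against 23.3 ± 0.458 in sh-IRF1. S100A9, with 2.52 ± 0.631 and 0.534 ± 0.360 RPKM, and S100A8, with 0.255 ± 0.360 and 0.582 ± 0.196, were the lowest, and in sh-IRF1 they did not differ beyond their spread. The place of ANXA2 depends on the length used as well, since its exon union of 11574 bases is far longer than its canonical transcript of 1554 bases, on which it had 77.9 ± 0.332 RPKM in sh-NC and ranked 4 instead of 6.

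For 5 pairs of genes whose proteins bind each other or are close relatives, the log2 ratio of their normalized counts (each plus 1) was taken within each library, which removes the scaling between libraries. An exact two-sided permutation test of 2 libraries against 2 cannot give a p below 0.333, so these are given as values. S100A10 to ANXA2, the subunits of 1 complex, had log2 ratios of -2.20 and -2.05 in sh-NC and -2.59 and -2.53 in sh-IRF1. The knockdown libraries had less S100A10 per ANXA2, by 0.43 on average, and the groups did not overlap. As S100A10 alone changed by -0.01 and ANXA2 by 0.42, this ratio mostly restates the rise of ANXA2. S100A4 to S100A6 had log2 ratios of 1.33 and 1.52 in sh-NC and 2.12 and 2.09 in sh-IRF1, so these genes moved apart by 0.68. That mostly restates the fall of S100A6 (log2 fold change -0.67), as S100A4 changed by 0.00.

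ANXA1 to ANXA2 had log2 ratios of -1.87 in both sh-NC libraries and -2.34 and -2.38 in the sh-IRF1 libraries. With a change of -0.07 in ANXA1, this too mostly restates the rise of ANXA2. S100A11 to ANXA1 had 2.47 and 2.42 in sh-NC and 2.40 and 2.44 in sh-IRF1, and was the 1 pair of the 5 whose groups overlapped. S100A8 to S100A9 had -1.79 and -4.50 in sh-NC and -0.17 and 1.68 in sh-IRF1. The last ratio rests on at most 12 reads of S100A8 in any library, and the -4.50 on the library with 0 reads. The exact permutation p was 0.333 for the 4 pairs without overlap and 0.667 for S100A11 to ANXA1, before any adjustment.

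The remaining S100 genes were scarce. Of 15 such genes 7 were listed and 4 tested, with a median log2 fold change of -0.26. Beside 20.3% and 21.9% of all genes tested, 0 were called higher and 1 lower. That gene was S100P, a relative first found in placenta, which went from 21.0 ± 3.61 to 5.74 ± 2.49 (mean ± SD of the normalized count, n = 2 each; log2 fold change -1.75, standard error 0.627, adjusted p = 0.0211 from limma). It too passed the filter only through the sh-NC libraries, and the call was lost with DESeq2 (adjusted p = 0.0544) and without sh-NC replicate 1, sh-NC replicate 2 or sh-IRF1 replicate 1 (adjusted p = 0.161, 0.0559 and 0.121 from limma). Of 7 genes for fused S100 proteins, large proteins of the skin barrier, 2 were listed and neither was above 5.14 normalized counts.

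Of the 10 other annexins, 7 were listed and 5 tested. Of these 5, 3 rose, 0 fell and 2 did not pass, with a median log2 fold change of 0.20. Over all genes tested 20.3% were called higher and 21.9% lower, and with so few annexins nothing is read from the counts. ANXA11, which tethers RNA granules to lysosomes, rose from 3364 and 3383 normalized counts in sh-NC to 4624 and 4764 in sh-IRF1 (log2 fold change 0.48, adjusted p = 3.72e-14 from limma). ANXA6, an annexin with a doubled core, rose from 2281 ± 10.8 to 3154 ± 119 (SD, n = 2 each; log2 fold change 0.47, adjusted p = 6.49e-12 from limma). These changes were of about the size of those of ANXA2 and ANXA5. ANXA7 went from 916 ± 19.7 to 1050 ± 3.39 (log2 fold change 0.20, adjusted p = 0.0191 from limma). Its call was lost with DESeq2 (adjusted p = 0.0517) and without sh-NC replicate 1, sh-IRF1 replicate 1 or sh-IRF1 replicate 2 (adjusted p = 0.0847, 0.085 and 0.0995 from limma).

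Of 15 other galectin genes, 9 were listed and 4 tested, with a median log2 fold change of 0.27. LGALS9, whose product binds the checkpoint receptor TIM-3, rose from 2675 ± 9.17 to 3425 ± 29.5 (mean ± SD of the normalized count, n = 2 each; log2 fold change 0.36, adjusted p = 2.01e-09 from limma). Its near-identical copies LGALS9B and LGALS9C were listed at no more than 18.7 normalized counts, and reads may be split among them. LGALS12, a galectin of fat and myeloid cells, fell to 54.2% of the control level, from 797 ± 45.7 to 432 ± 14.2 (log2 fold change -0.88, adjusted p = 2.00e-11 from limma). LGALS3 and LGALS8 did not pass the test.

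Among 18 receptors and binding partners of these proteins, 16 were listed and 13 tested. Of these 13, 3 rose, 6 fell and 4 did not pass, with a median log2 fold change of -0.32. Over all genes tested 20.3% were called higher and 21.9% lower, and nothing is read from such small counts. SPN, a sialomucin that galectin-1 binds, rose from 13092 ± 273 to 19099 ± 518 (mean ± SD of the normalized count, n = 2 each; log2 fold change 0.54, adjusted p = 8.62e-22 from limma). MYH9, the nonmuscle myosin chain that S100A4 binds, rose from 31582 ± 714 to 39975 ± 696 (log2 fold change 0.34, adjusted p = 1.56e-17 from limma). BSG, or basigin, a receptor for S100A9, rose from 15872 ± 556 to 19558 ± 358 (log2 fold change 0.30, adjusted p = 3.83e-13 from limma).

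AHNAK, a giant scaffold that S100A10 and ANXA2 hold at the membrane, fell from 12985 ± 120 to 8423 ± 226 (mean ± SD of the normalized count, n = 2 each; log2 fold change -0.62, adjusted p = 1.67e-22 from limma). LGALS3BP, a secreted glycoprotein that galectins bind, fell to 38.7% of the control level, from 663 ± 15.1 to 257 ± 11.7 (log2 fold change -1.37, adjusted p = 4.28e-15 from limma). PTPRC, the CD45 phosphatase, a surface ligand of galectin-1, fell from 3214 ± 7.96 to 2301 ± 87.7 (log2 fold change -0.48, adjusted p = 2.15e-12 from limma). Thus SPN and PTPRC, both glycoproteins that galectin-1 binds, moved in opposite directions. ITGB1, a gene of the same list named after its values were seen, fell from 2749 ± 66.4 to 2201 ± 9.10 (log2 fold change -0.32, adjusted p = 1.69e-07 from limma).

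TLR4, AGER, CD36 and CACYBP are named here after their values were seen. TLR4, a receptor for S100A8 and S100A9, fell from 677 ± 20.4 to 495 ± 29.6 (mean ± SD of the normalized count, n = 2 each; log2 fold change -0.45, adjusted p = 5.58e-05 from limma). Of the other receptors in the list, AGER (log2 fold change -0.33, adjusted p = 0.413 from limma) and CD36 (0.02, adjusted p = 0.788 from limma) did not pass, while BSG rose. CACYBP, the partner of S100A6, fell from 2277 ± 81.9 to 1757 ± 54.5 (log2 fold change -0.37, adjusted p = 4.85e-08 from limma), and 18.4% of its exonic bases also belong to other genes. FPR1 and FPR2, the receptors of annexin A1, were listed at no more than 9.24 normalized counts in any library and were not tested.

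The plasminogen system, which the S100A10 and annexin A2 complex serves at the cell surface, had 6 of 8 genes listed and 5 tested. Of these 5, 2 rose, 1 fell and 2 did not pass, with a median log2 fold change of 0.41. Over all genes tested 20.3% were called higher and 21.9% lower, and nothing is read from such small counts. PLAU, the urokinase that activates plasminogen, rose to 192% of the control level, from 874 ± 42.0 to 1681 ± 68.8 (mean ± SD of the normalized count, n = 2 each; log2 fold change 0.94, adjusted p = 6.25e-17 from limma). Of its exonic bases, 31.0% are shared with an antisense gene, and the use of strand in counting is not known, so its level is uncertain. PLAUR, the receptor of urokinase, rose from 1141 ± 51.2 to 1513 ± 40.8 (log2 fold change 0.41, adjusted p = 3.73e-07 from limma). ENO1, a glycolytic enzyme that also binds plasminogen at the surface, fell from 51189 ± 222 to 44234 ± 44.8 (log2 fold change -0.21, adjusted p = 2.60e-12 from limma).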

How the data were processed

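RNA was sequenced from 2 sh-NC and 2 sh-IRF1 libraries of MV4-11 cells, made from total RNA with a TruSeq kit. The submitters' processing notes name HISAT2 2.0.5 and hg38. The counting tool, annotation and use of strand are not given in the sources used here. The deposited table holds a normalized signal, which the authors made from gene reads by dividing each library by its own size factor, and 0 other value columns were present. FPKM values named in the methods were not used. Each value was a whole multiple of what 1 read is worth (100% of values within 0.01 of a read), so reads were recovered, at 17635908 to 18695337 per library.

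Genes that reached 10 in 2 or more libraries (14120 of 23622) were tested with limma 3.58.1 (R 4.3.3, trend and robust shrinkage, 43.0 prior degrees of freedom at the median) on log2(value + 1) with Benjamini-Hochberg adjustment. A chi-square of reads per gene of 2.93 between the sh-NC libraries and 2.47 between the sh-IRF1 libraries (genes with at least 20 reads) shows replicates that differ by more than sampling noise. At an adjusted p under 0.05, limma called 2861 genes higher and 3092 lower, edgeR 4.0.16 (TMM, quasi-likelihood test) 2955 and 3080 on the recovered reads, and DESeq2 1.42.0 2312 and 2605. With total-read scaling limma called 3428 higher and 2647 lower. Symbols were matched for 23456 identifiers. Positions and lengths came from GENCODE 44 and promoters from RefSeq on GRCh38.p14. The scripts were tested on simulated data in which only genes with a mean of at least 50 were changed. That test does not cover genes as sparsely read as S100A9 and is not support for the calls here.

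The genes and lists were chosen with earlier results of these data known. Named were every gene of the list, IRF1 and, in each related list, up to 3 called genes with the smallest p in each direction. Alternatives covered scaling, pseudocount, filter, shrinkage, the count tests, a replicate block, transcript length and leaving out each library.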

Additional observations from a re-analysis of the deposited data

How the results depend on the processing

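Only 2 libraries per group were sequenced, and the filter left out of the main test genes that did not reach 10 normalized counts in at least 2 libraries. Over the alternatives run, 372 of the single-gene values kept their direction and their side of the threshold, 10 kept the direction but lost the call (those of S100A9, S100P and ANXA7) and 6 turned direction. The latter were S100A4, at -0.062 without sh-NC replicate 2 and -0.036 without sh-IRF1 replicate 2 (range -0.062 to 0.071 with single libraries left out), and S100A10, at 0.034 with total-read scaling, 0.0050 with upper-quartile scaling, 0.058 without sh-NC replicate 2 and 0.013 without sh-IRF1 replicate 1 (range -0.080 to 0.058), none of them called in any setting. Changing the filter, the shrinkage or the replicate block leaves the log2 fold change itself as it was. Under these settings a value could only gain or lose its call, and part of the 372 rests on them. Scaling to total reads moved the median of all genes by 0.044 and put 1 gene of the list higher beyond 0.5 instead of 0, which leaving out single libraries held between 0 and 1. A mean of at least 50 left S100A9 and S100P out of the test, so the list had 1 gene lower, and 1 lower beyond 0.5, instead of 2, and the other S100 genes 0 instead of 1. With single libraries left out, the list had between 1 and 2 lower, with or without the minimum fold change, and the other S100 genes between 0 and 1. DESeq2 also gave 0 lower among the other S100 genes. Replicate numbers did not pair the samples (correlation of same-numbered deviations -0.0154, from 2 pairs), and with the number as a replicate block 2903 genes were called higher and 3147 lower, and no call of a gene of the list changed. On canonical transcript lengths, an alternative chosen after seeing the data, 7 of the 10 genes kept their rank by level in sh-NC and 6 in sh-IRF1.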
